A study of Saccharomyces cerevisiae with 3 samples.

Results

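R2 IVo, an intraspecific hybrid of Saccharomyces cerevisiae, was compared here with Sc2, 1 of its 2 parental strains, by array comparative genomic hybridisation. In this method the DNA of both strains, here digested with Hinf I and tagged with a different dye each, competes for the same array spots, each of which carries an open reading frame (ORF). The members are all ORFs of the array with a value in the R2 IVo against Sc2 sample: 6152 of the 6178 ORFs in the table, after removal of 2 kinds of control spot. The series holds 3 samples, 1 for each pair of strains, and per the labels each combines duplicate arrays with the dyes exchanged. The other samples, R2 IVo against Sc1 (the other parent) and Sc1 against Sc2, were used to check the first by an indirect path.

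How the hybrid was made, the ploidy of the strains and how many cultures were grown were not stated in the labels. Per the labels, all 3 strains shared the same industrial cultivation and drying. Equal amounts of labelled DNA of the 2 strains were hybridised, so a value gives the share of an ORF in one genome relative to the other, and a difference in ploidy that touched all chromosomes alike would leave no trace in it.

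A hybrid of 2 strains of one species starts with a chromosome set from each, and later loss of one parent's copy, gene conversion or gain of copies can move single loci toward one parent or away from both. In baker's and wine yeasts most variation in gene content lies at the chromosome ends, which carry families of nearly identical genes for sugar use, cell surface proteins and the Y′ elements, repeats that hold a helicase gene. Ty retrotransposons, mobile elements with a gag-like first reading frame (TYA) and a second frame for the enzymes (TYB), make up most of the dispersed repeats inside chromosomes. An array cannot tell apart fewer copies, sequence that differs from the array's probe, and the loss of related copies elsewhere, since all of them lower the ratio.

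Values are log2 ratios with R2 IVo as numerator, each sample centred on its median over ORFs, and positive values mean more hybridisation of R2 IVo DNA. The base of the logarithm and the common direction are likely readings that the labels do not settle. If the direction were the opposite, every sign below would turn. In the R2 IVo against Sc2 sample 11 values stood as whole numbers of 1000 or more in size. They were taken as values whose decimal point was dropped, and division by 1000 put it back, a reading the labels do not state. The sum of R2 IVo over Sc1 and Sc1 over Sc2 gives the indirect value of each ORF, and indirect minus direct is called the closure. It had an SD of 0.19 over the 6123 ORFs with 3 values, against 0.29 with the R2 IVo against Sc2 sample turned round. The samples of the indirect path use DNA of the same strains, so an error that follows the DNA of 1 strain enters both values.

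Most of the genome hybridised alike in R2 IVo and Sc2. The direct values had quartiles of −0.06 and 0.06, and the central 95% lay between −0.24 and 0.22. The lowest value was −3.63, a 12.4-fold lower ratio in R2 IVo, and the highest was 2.63, a 6.17-fold higher one. In all, 61 ORFs were at least 0.5 in size in the direct sample, 18 higher and 43 lower in R2 IVo, and 14 were at least 1 in size, 5 higher and 9 lower. Of those 61 ORFs, 44 were also at least 0.5 in size with the same sign by the indirect path, 6 higher and 38 lower. They made up 0.719% of the 6123 ORFs with both values.

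Direct and indirect values were then combined in a linear model fitted across all ORFs (limma, Benjamini-Hochberg adjustment, threshold 0.05). The model called 56 ORFs, which is 0.915% of the 6123 tested. Of these, 11 (0.180%) were higher in R2 IVo and 45 (0.735%) were lower, against 487 ORFs with p under 0.05 before adjustment. The called ORFs fall into 3 sets: 23 ORFs of Y′ elements and 12 of Ty elements, all lower in R2 IVo, and 21 others, of which 11 were higher and 10 lower. In the Sc1 over Sc2 sample, 55 of the 56 called ORFs had the sign of the estimate. For 52 of them R2 IVo over Sc1 had the opposite sign. Both samples hold Sc1 DNA, so an error in it alone would give opposite signs, and several of these values, such as 0.014 at YHL050C and 0.032 at CSS3, were below the SD of the closure. The exceptions were YLR162W, AAD15, DOG2 and MCH2. The SE of the 56 estimates ran from 0.061 to 0.31, and for 45 of them direct and indirect values differed by at most 0.25. The gap between these values is the only residual of the model, so a small gap favours a call and is no separate check. Of the 56 called ORFs, 37 held a restored decimal point in at least 1 sample, 8 of them in the direct sample. The count of calls was 34 (5 higher, 29 lower) when the prior degrees of freedom were set at 4. It was 15 (4 higher, 11 lower) without the ORFs that held a restored decimal point in any sample.

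**Figure D1:**
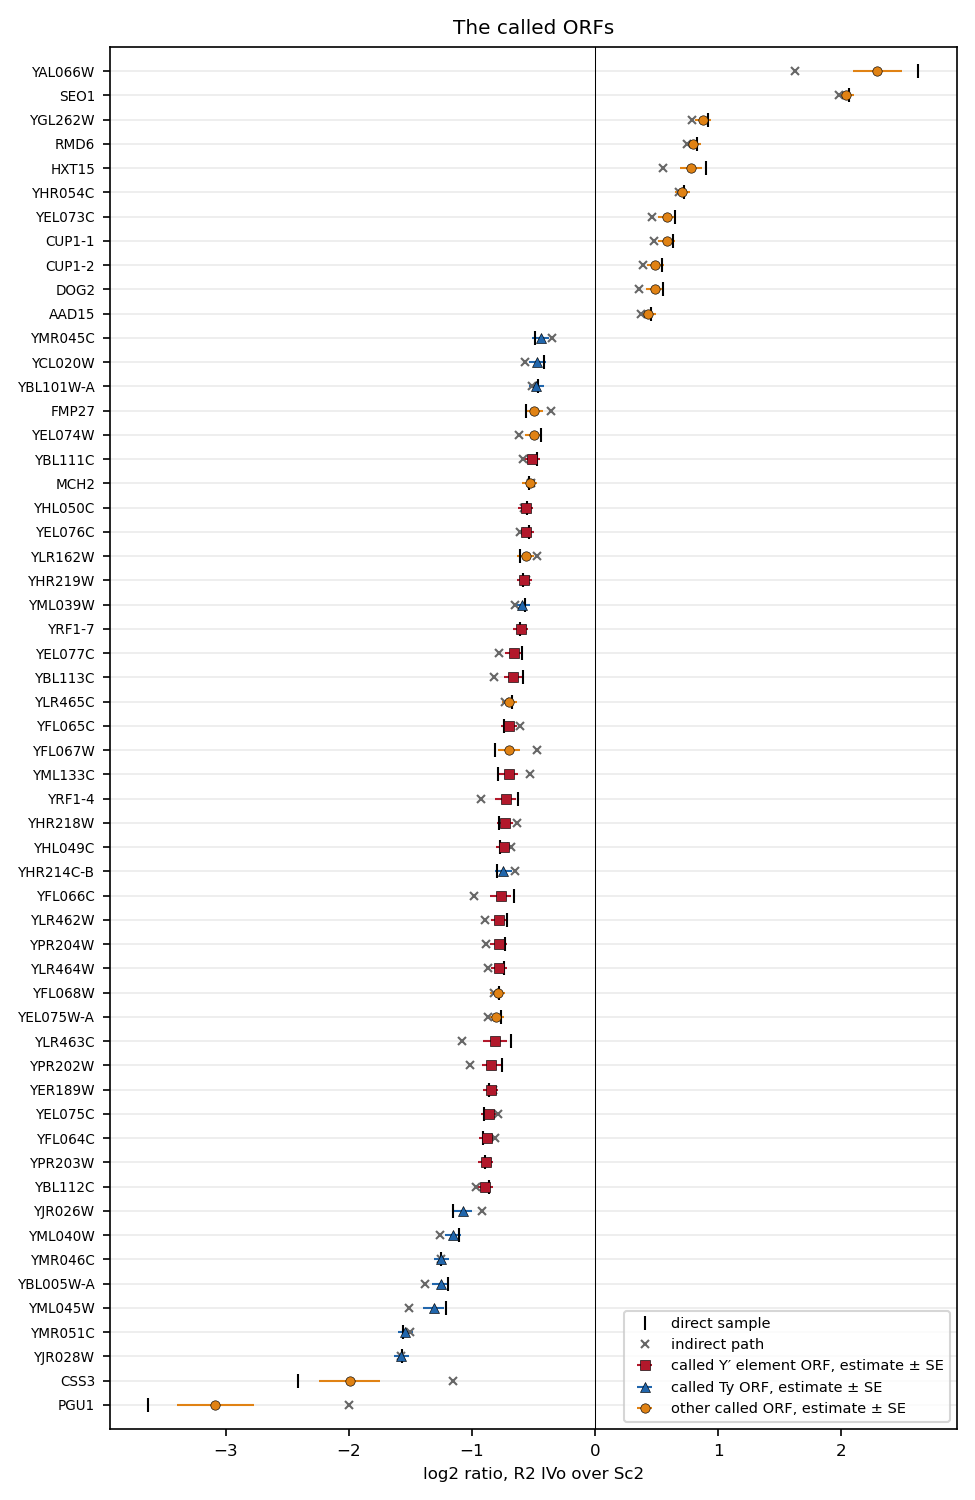
The 56 called ORFs ordered by their estimate, with the log2 ratio of R2 IVo over Sc2 on the horizontal axis. Coloured markers are model estimates with SE bars, vertical ticks the direct sample and crosses the indirect path. The 11 higher ORFs lie between 0.43 and 2.29 and the 45 lower ones between −0.44 and −3.09, with the widest gap between tick and cross at PGU1 and CSS3.

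The ORFs with the highest ratios were SEO1 and YAL066W, neighbours on the left arm of chromosome I. SEO1, a putative permease gene, had a direct value of 2.06 and an indirect value of 1.98, the sum of −0.89 for R2 IVo over Sc1 and 2.87 for Sc1 over Sc2. Its estimate of 2.04 ± 0.063 (SE), a 4.10-fold higher ratio in R2 IVo, had the lowest adjusted p of the comparison (limma adjusted p = 0.000188). YAL066W was at 2.63 directly and at 1.62 by the indirect path, with an estimate of 2.29 ± 0.20 (limma adjusted p = 0.00526). The gap between the paths at YAL066W was 1.01, and its call ended with robust moderation (limma adjusted p = 0.13). The R2 IVo over Sc1 value of YAL066W had its decimal point restored. The block was short. PAU8 on the outer side had a direct value of −0.08, and YAL065C-A and YAL065C on the inner side had −0.23 and 0.23.

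At the copper metallothionein locus on the right arm of chromosome VIII, 3 neighbouring ORFs were higher in R2 IVo. CUP1-1 and CUP1-2 are tandem copies of the gene for the metallothionein that binds copper, and strains differ in how often the unit is repeated. CUP1-1 had a direct value of 0.63 and an indirect value of 0.48 (estimate 0.58 ± 0.068, limma adjusted p = 0.0154). CUP1-2 had 0.54 and 0.39 (estimate 0.49 ± 0.068, limma adjusted p = 0.0351), and YHR054C, which lies between them, had 0.72 and 0.68 (estimate 0.71 ± 0.062, limma adjusted p = 0.00526). R2 IVo over Sc1 was at −0.59, −0.68 and −0.29 and Sc1 over Sc2 at 1.07, 1.07 and 0.97 for CUP1-1, CUP1-2 and YHR054C. The copies are nearly identical, so their values are not separate measurements. RSC30, a chromatin remodelling gene next to CUP1-2, was at 0.31 directly and 0.19 indirectly and was not called. On the other flank CIC1, a gene of proteasome and ribosome assembly, was at −0.34 and −0.36 and was not called either (limma adjusted p = 0.10). The calls of both CUP1 genes ended with prior degrees of freedom of 4 (limma adjusted p = 0.0564 for CUP1-1 and 0.0995 for CUP1-2). For both CUP1 genes the Sc1 over Sc2 value had its decimal point restored.

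On the left arm of chromosome V the direction changed between neighbouring ORFs. Among the outermost ORFs YEL076C, YEL075W-A, YEL075C and YEL074W, in order from the end, were called lower, with direct values of −0.54, −0.77, −0.90 and −0.44. The next ORFs inward, YEL073C and RMD6, were called higher. RMD6, a gene needed for sporulation, was at 0.83 directly and 0.74 indirectly (estimate 0.80 ± 0.063, limma adjusted p = 0.00397), and YEL073C at 0.65 and 0.46 (estimate 0.58 ± 0.071). Further inward DLD3, DSF1 and HXT13 had direct values of 0.54, 0.41 and 0.42, but indirect values of −0.15, 0.21 and 0.11, without a call. DLD3 is named after D-lactate dehydrogenase, DSF1 encodes a mannitol dehydrogenase and HXT13 a transporter of the hexose transporter family. DSF1 and HXT13 have near-identical partners on the right arm of chromosome XIV. There MAN2 was at 0.32 directly and 0.56 indirectly and HXT17 at 0.21 and 0.06, and neither was called, and the signals of such partners cannot be told apart on the array.

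The other higher ORFs had no called neighbour. YGL262W, an ORF near the left end of chromosome VII, was at 0.92 directly and 0.79 indirectly (estimate 0.88 ± 0.066, limma adjusted p = 0.00347), while its neighbours COS12 and PAU11 had direct values of −0.06 and −0.10. HXT15, a hexose transporter family gene on the left arm of chromosome IV, was at 0.90 and 0.55 (estimate 0.78 ± 0.089, limma adjusted p = 0.0148). Its near-identical partner HXT16 on chromosome X was at 0.22 and −0.09. The flanking genes SOR2 and THI13 were at 0.007 and 0.025 directly. DOG2, a phosphatase gene for 2-deoxyglucose 6-phosphate, was at 0.55 and 0.35 (estimate 0.49 ± 0.072, limma adjusted p = 0.0464), and its neighbour and paralogue DOG1 was at 0.32 and 0.35 without a call. R2 IVo over Sc1 was at 0.097 for DOG2, which is less than the SD of the closure. AAD15, a putative aryl-alcohol dehydrogenase gene at the left end of chromosome XV, was at 0.46 and 0.37 (estimate 0.43 ± 0.063, limma adjusted p = 0.0464), and the outermost ORF beside it, YOL166C, was at 0.35 and 0.42 without a call. For AAD15, R2 IVo over Sc1 was at 0.31 and Sc1 over Sc2 at 0.065, so its ratio was higher against either parent, without a test against Sc1. The calls of HXT15, YEL073C, DOG2 and AAD15 ended with prior degrees of freedom of 4 (limma adjusted p between 0.060 and 0.13). The same calls also ended when multi-copy families, among them the Y′ and Ty ORFs, were left out of the test (limma adjusted p between 0.057 and 0.139). Without centring those of DOG2 and AAD15 ended too (limma adjusted p = 0.092 and 0.0815), as they did without restored decimals (limma adjusted p = 0.0955 for each). For YGL262W and HXT15 the Sc1 over Sc2 value had its decimal point restored.

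The lowest ratio of all belonged to PGU1 on the right arm of chromosome X, the gene for endopolygalacturonase, an enzyme that breaks down pectin. Its direct value was −3.63 and its indirect value −2.001, and R2 IVo over Sc1 was at 0.20 while Sc1 over Sc2 was at −2.21. The estimate was −3.09 ± 0.31, a ratio of 0.118 in linear terms (limma adjusted p = 0.00947). Among the 4 nearest measured ORFs on each side none was low: DAL5 and YJR154W beside PGU1 had direct values of −0.034 and 0.094 and the other 6 lay between −0.13 and 0.12. CSS3 on the left arm of chromosome XV was at −2.42 directly and −1.15 indirectly (estimate −1.995 ± 0.245, limma adjusted p = 0.0191). Its outer neighbour YOL160W was at −0.79 directly but at 0.20 indirectly and was not called, and its inner neighbour ENB1, a siderophore transporter gene, was at 0.30 and 0.22. For PGU1 and CSS3 the direct values and the Sc1 over Sc2 values had their decimal point restored. Both calls ended with robust moderation (limma adjusted p = 0.475 and 0.539), and with prior degrees of freedom of 4 (limma adjusted p = 0.0518 and 0.0943). The call of CSS3 also ended when the multi-copy families were left out of the test (limma adjusted p = 0.0694).

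Another 8 ORFs outside the Y′ and Ty lists were called lower. Among them YEL075W-A, YEL074W, YFL067W, YFL068W and YLR465C lie in stretches of called ORFs with Y′ ORFs at the left ends of chromosomes V and VI and the right end of chromosome XII, with direct values between −0.82 and −0.44. The remaining 3 were MCH2, FMP27 and YLR162W. MCH2, which resembles monocarboxylate permease genes and lies near the left end of chromosome XI, was at −0.54 directly and −0.52 indirectly (estimate −0.53 ± 0.061, limma adjusted p = 0.0148), and YKL222C beside it was at −0.38 and −0.28 without a call. FMP27 on chromosome XII was at −0.56 and −0.36, and the estimate was −0.49 ± 0.073 (limma adjusted p = 0.046). YLR162W, near the asparaginase repeats beside the ribosomal DNA, was at −0.61 and −0.47 (estimate −0.57 ± 0.067, limma adjusted p = 0.0162). Its ratio was low against either parent, at −0.53 for R2 IVo over Sc1, while Sc1 over Sc2 was at 0.063, without a test against Sc1. The calls of YFL067W, YEL074W, MCH2, FMP27 and YLR162W ended with prior degrees of freedom of 4 (limma adjusted p between 0.0518 and 0.126). They also ended when the multi-copy families were left out of the test (limma adjusted p between 0.057 and 0.139). That of FMP27 ended without centring (limma adjusted p = 0.098) and without restored decimals (limma adjusted p = 0.0955) as well. The 4 ASP3 asparaginase genes nearby were not called, and their estimates ran from 0.005 to 0.245 (1 with p under 0.05 before adjustment).

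The Y′ elements were the largest group among the calls. Of 32 ORFs of these elements on the array, 23 (71.9%) were lower in R2 IVo, 0 were higher by limma and 9 were not called, and 25 of the 32 had p under 0.05 before adjustment. For comparison, 0.735% of all tested ORFs were called lower. The median of the 32 direct values was −0.62 and that of the indirect values −0.66, while the medians over all tested ORFs were 0 and −0.0040. The called Y′ ORFs had estimates between −0.51 and −0.90. YBL112C at the left end of chromosome II was the lowest, with −0.86 directly and −0.97 indirectly (estimate −0.90 ± 0.064, limma adjusted p = 0.0031). In the 2 other samples the 23 ORFs ran from 0.014 to 0.62 for R2 IVo over Sc1 and from −1.36 to −0.60 for Sc1 over Sc2. Without the ORFs with a restored decimal point, which for Y′ ORFs were all in the Sc1 over Sc2 sample, 8 Y′ ORFs were called. With prior degrees of freedom of 4, 17 were called.

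The Y′ ORFs sit at 16 chromosome ends, and 10 of these ends held a called one. At 8 ends every Y′ ORF measured was called: the left ends of chromosomes II, V, VI, VIII, XIII and XVI and the right ends of VIII and XVI. With prior degrees of freedom of 4 the calls of YBL113C and YBL111C on II, YFL066C on VI and YML133C, the single Y′ ORF of XIII, ended, as did those of YRF1-4 and YLR463C on XII (limma adjusted p between 0.053 and 0.070). At the right ends of V and XII, called and uncalled ORFs lay side by side. YER189W was at −0.86 directly, while YRF1-2, the outermost ORF of that end, was at 0.08. On chromosome XII YRF1-4 was at −0.63 and was called, while YRF1-5 was at −0.10 and was not. No Y′ ORF was called at the left ends of IX, X, XII and XIV or at the right ends of IV and VII. Of these, YRF1-6 on XIV and YRF1-3 on VII had direct values of −0.41 and −0.41, YRF1-1 on IV had −0.02, and the other 4 ORFs lay between −0.03 and 0.14. The members of this family are nearly identical in sequence, so a value can mix several copies and does not place a difference at 1 end.

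Of 31 Ty ORFs on the array, 12 (38.7%) were lower in R2 IVo, 0 were higher by limma and 19 were not called, and 19 of the 31 had p under 0.05 before adjustment. Their direct values had a median of −0.39, and 27 of the 31 were below 0, against 3035 of all 6123 tested ORFs. YJR028W had the lowest estimate, with −1.57 directly and −1.58 indirectly (−1.57 ± 0.061, limma adjusted p = 0.000323). YMR051C followed at −1.56 and −1.51 (estimate −1.54 ± 0.062), and YMR046C at −1.25 by both paths. YML045W, YBL005W-A, YML040W and YJR026W were called between −1.31 and −1.07, and YHR214C-B, YML039W, YBL101W-A, YCL020W and YMR045C between −0.75 and −0.44. The 12 called Ty ORFs ran from 0.19 to 1.08 in the R2 IVo over Sc1 sample. Without the ORFs with a restored decimal point 0 Ty ORFs were called by limma, because 11 of the 12 left the test and YMR045C, the remaining one, lost its call (limma adjusted p = 0.0955). With prior degrees of freedom of 4, 9 Ty ORFs were called.

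Most called Ty ORFs that could be paired were the first ORF of their pair. The pairing was made after the values were seen, and it gave 13 pairs of a first and a second ORF, called TYA and TYB here. In the 10 pairs with both lengths known the first ORF was the shorter. Whether the second ORF or its spot also holds the TYA frame was not checked. A difference within a pair can therefore not be read as one between separate frames. In 11 of the 13 pairs the TYA estimate was below the TYB estimate. TYA was called lower in 8 pairs and TYB in 2, YML039W and YMR045C. The 2 other called Ty ORFs, YML045W and YHR214C-B, had no partner. They were not assigned to TYA or TYB, so these counts leave them out. Their estimates were −1.31 and −0.75, within the range of the called TYA ORFs (−1.57 at YJR028W to −0.47 at YCL020W). As TYB ORFs they would go against the pattern of the pairs. In the element on chromosome XIII that holds YMR051C, TYA was at −1.54 ± 0.062 and TYB (YMR050C) at −0.15 ± 0.096. In the element of YBL005W-A on chromosome II, TYA was at −1.26 ± 0.071 and TYB (YBL005W-B) at −0.021 ± 0.063. The exceptions were YFL-TYA and YFL-TYB, at −0.42 and −0.43, and the Ty3 pair YIL082W and YIL082W-A, at 0.18 and −0.13. The Ty4 ORFs YJL114W and YJL113W, at 0.014 and 0.077, were not called. No test of the difference within pairs was made, since ORFs of different elements share sequence and are not replicates.

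**Figure D2:**
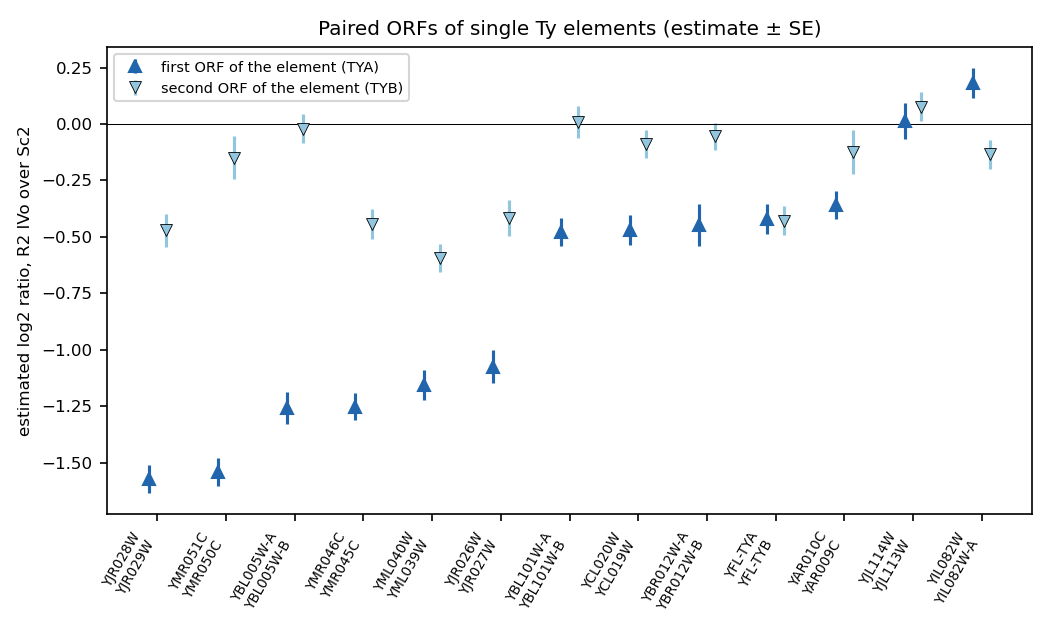
Estimated log2 ratio of R2 IVo over Sc2 for the paired ORFs of 13 Ty elements. The first ORF (TYA) is a dark upward triangle and the second (TYB), which may include the TYA frame, a light downward triangle, with SE bars. TYA lies below TYB in 11 of 13 pairs, by 1.39 at YMR051C and by 1.24 at YBL005W-A.

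Called ORFs were concentrated at chromosome ends. The 10 outermost measured ORFs of the 32 arms are 5.25% of the tested ORFs with a known place, and they held 39 of the 56 calls, or 69.6%. Most of these 39 were the 23 called Y′ ORFs, and YEL075W-A, YEL074W, YFL067W, YFL068W and YLR465C lie in stretches with them. Y′ ORFs are near-identical repeats, so the 39 calls are not separate places, and the shares below count each ORF of the family. Among the 5 outermost ORFs of each arm 32 of 160 tested ORFs were called (20%), 27 lower and 5 higher in R2 IVo. The share was 4.38% for places 6 to 10, 0.627% for places 11 to 20, 0 of 637 ORFs by limma for places 21 to 40 (47 with p under 0.05 before adjustment), and 0.312% further inside. In the interior beyond place 40 the 15 calls were 10 Ty ORFs, YLR162W, the 3 ORFs of the CUP1 unit and DOG2.

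**Figure D3:**
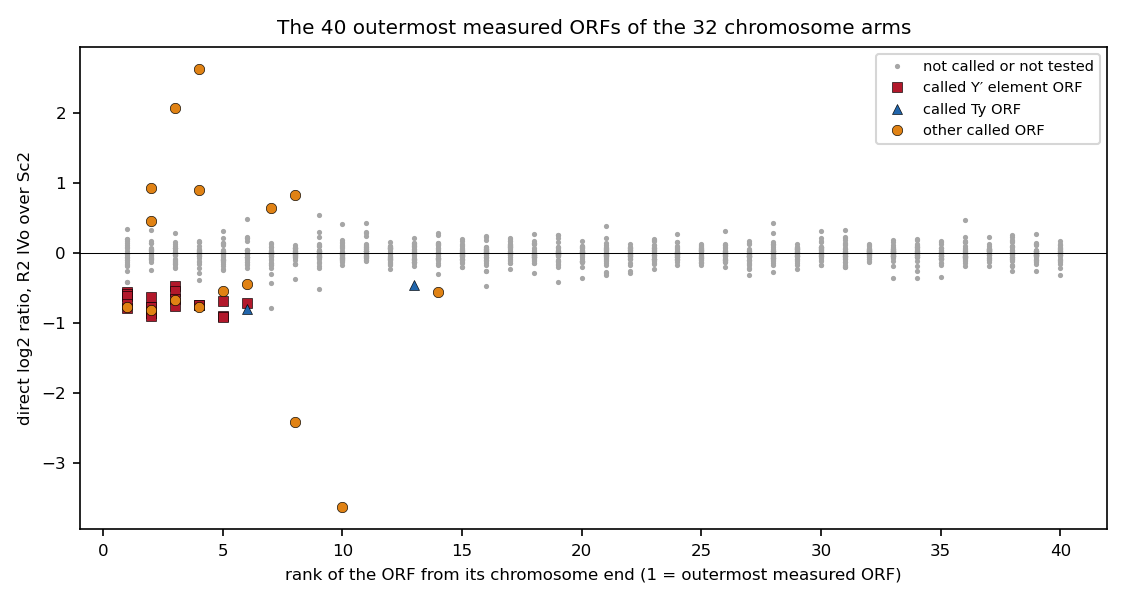
Direct log2 ratio of R2 IVo over Sc2 for the 40 outermost measured ORFs of each of the 32 chromosome arms, against their rank from the end. Most called ORFs lie in ranks 1 to 8 and are below 0, PGU1 at rank 10 is the lowest point, and no ORF between ranks 21 and 40 is called.

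Neighbouring ORFs of one sign were looked for as runs of at least 3 measured ORFs with an estimate of at least 0.25 in size. There were 9 such runs with 37 ORFs, 27 of them called. The 6 lower runs were 5 Y′ regions and the tandem Ty elements YJR026W to YJR029W. The 3 higher runs were the CUP1 unit, YEL073C to HXT13, and ADH7 to AAD3 at the right end of chromosome III. In the last, ADH7 (an alcohol dehydrogenase gene), RDS1 (a drug resistance regulator) and AAD3 had direct values of 0.28, 0.33 and 0.20 and indirect values of 0.47, 0.44 and 0.41, and none was called (limma adjusted p between 0.11 and 0.35). The longest run had 5 ORFs, and no longer block of one sign was found under this rule.

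The chromosome medians lay close to 0. Over the 16 chromosomes the medians of the direct values ran from −0.028 on chromosome I to 0.026 on chromosome XVI. The 32 arms ran from −0.045 on the right arm of I to 0.042 on the left arm of VI. For scale, 3 copies against 2 would give a log2 ratio of 0.585. A running median over 21 neighbouring ORFs stayed between −0.10 and 0.094. By the indirect path chromosome I stood at −0.11, with chromosome IX at the other side at 0.050, and the direct medians of these were −0.028 and −0.016. Chromosomes IX and XIV, with 222 and 413 measured ORFs, held no ORF called by limma (24 and 24 with p under 0.05 before adjustment). Chromosome VIII had the most calls, 9 (3.25% of its tested ORFs), of which 4 were higher and 5 lower. The highest share was on chromosome VI, 4% with 5 calls, against 0.915% of all tested ORFs.

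**Figure D4:**
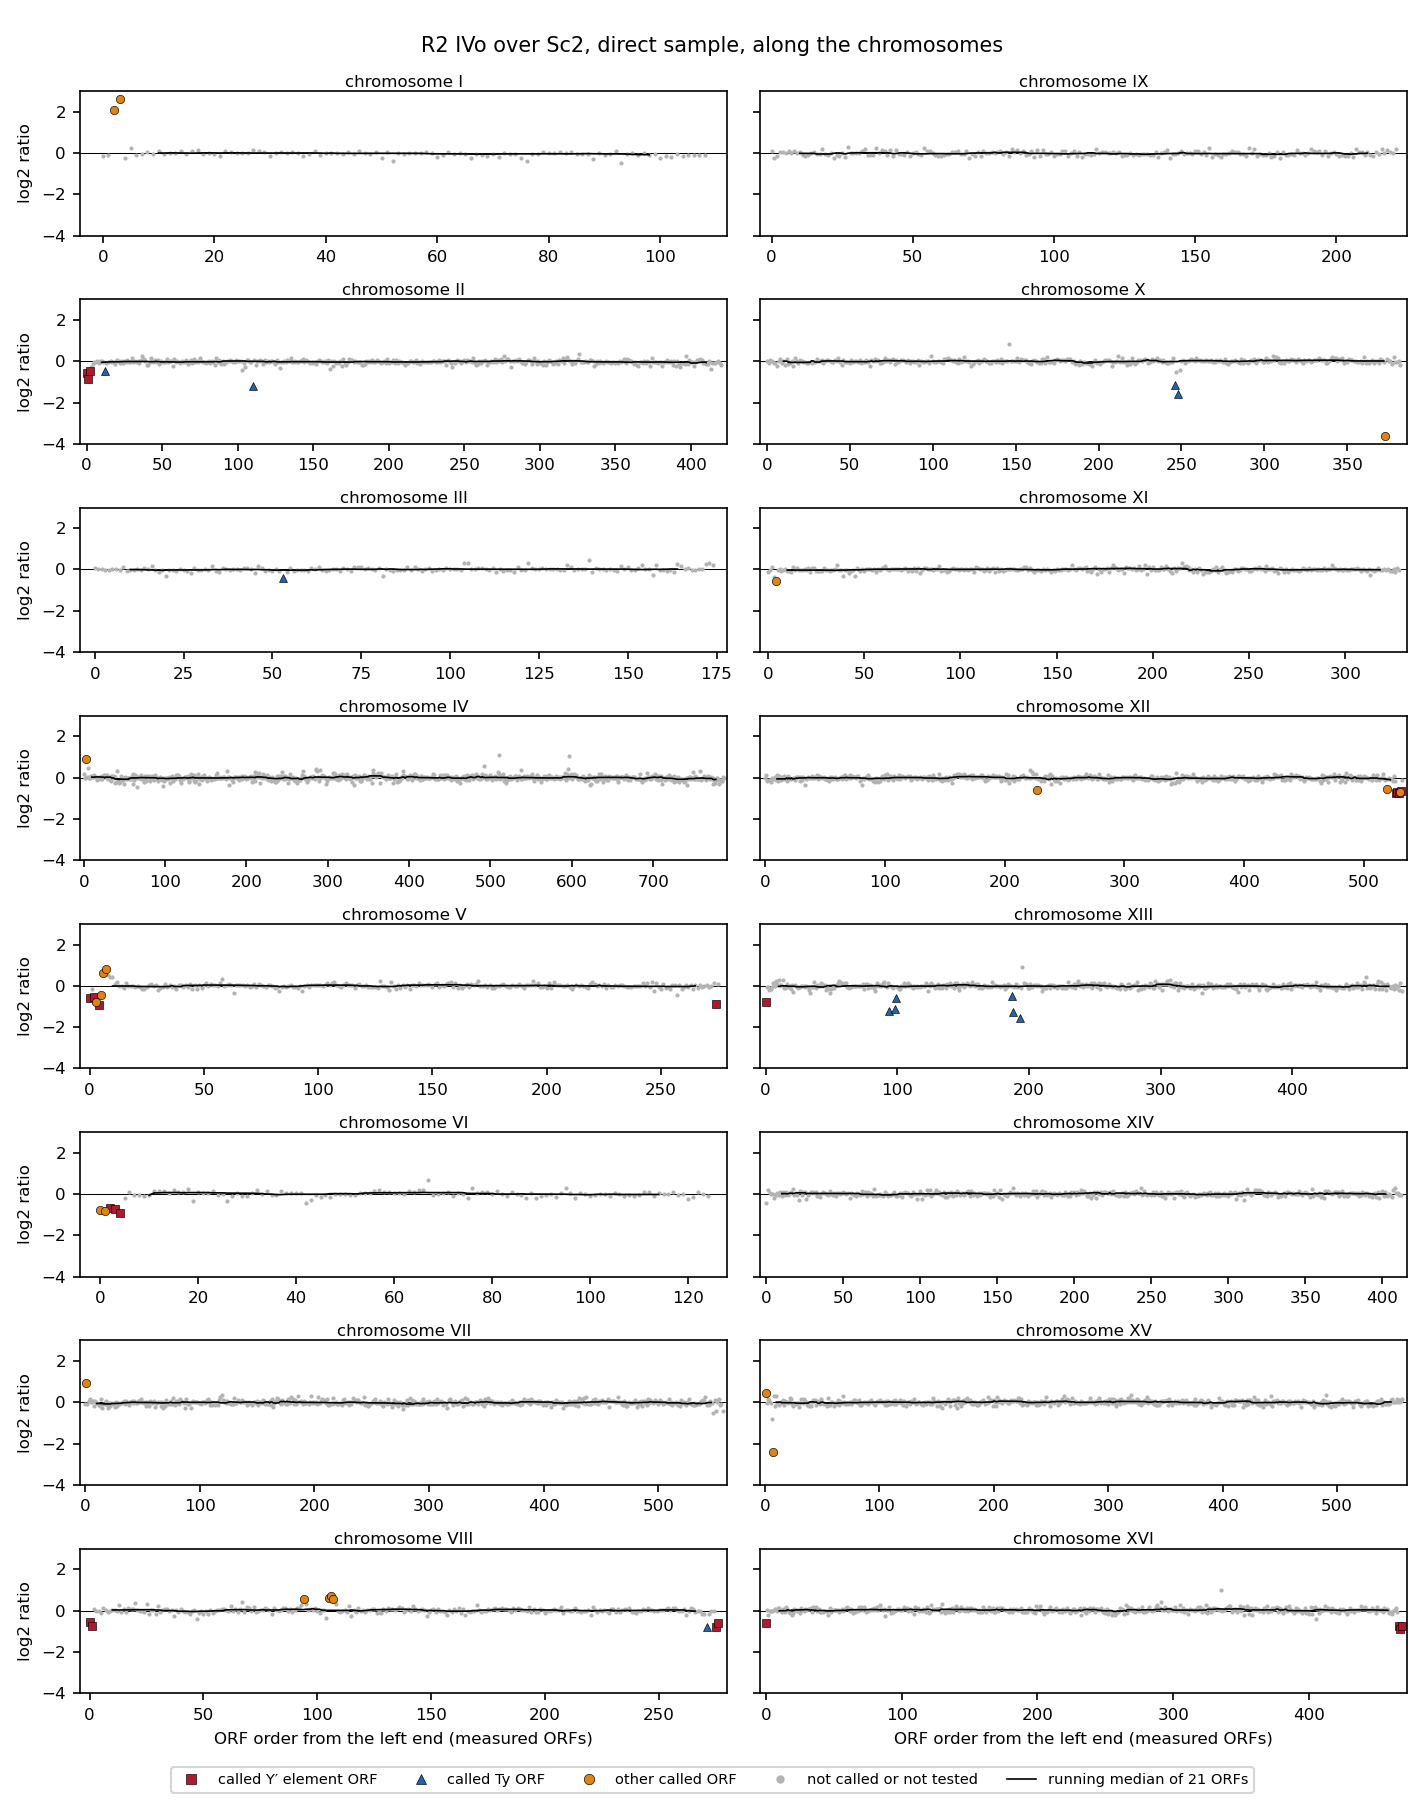
Direct log2 ratio of R2 IVo over Sc2 for each measured ORF in its order along the 16 chromosomes, with called ORFs coloured and a black running median of 21 ORFs. The black line stays between −0.10 and 0.094, and the coloured points lie mainly at the ends, with Ty ORFs and the CUP1 unit inside.

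Not every large direct value was borne out by the indirect path. Of the 61 ORFs at least 0.5 in size, 50 were called and 11 were not. DIN7, a DNA repair nuclease gene, was at 1.09 directly and 0.30 indirectly (estimate 0.83 ± 0.16, limma adjusted p = 0.14). ARO7, the chorismate mutase gene of aromatic amino acid synthesis, was at 1.01 and 0.059 (limma adjusted p = 0.37), and for both genes the direct value had its decimal point restored. PRY3, a cell wall protein gene, was at 0.85 and −0.16, DEG1, a pseudouridine synthase gene, at 0.67 and −0.13, and MNN10, a mannosyltransferase gene, at 0.56 and 0.037. So these ORFs were high in the direct sample and lower by the indirect path. YPS7, a yapsin-type protease gene, was at 1.04 with a restored decimal point and YMR052C-A at 0.92 in the direct sample, and neither has an indirect value. MAL13, a regulator of maltose genes, was at −0.52 directly and −1.16 indirectly without a call (limma adjusted p = 0.12). The reverse also occurred: REE1 on chromosome X was at 0.007 directly and 3.10 indirectly, HXT12 at −0.015 and 1.39, and HXT11 at 0.29 and −1.37. None of these was called, and for REE1, HXT12, HXT11 and MAL13 both values behind the indirect path had their decimal point restored.

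**Figure D5:**
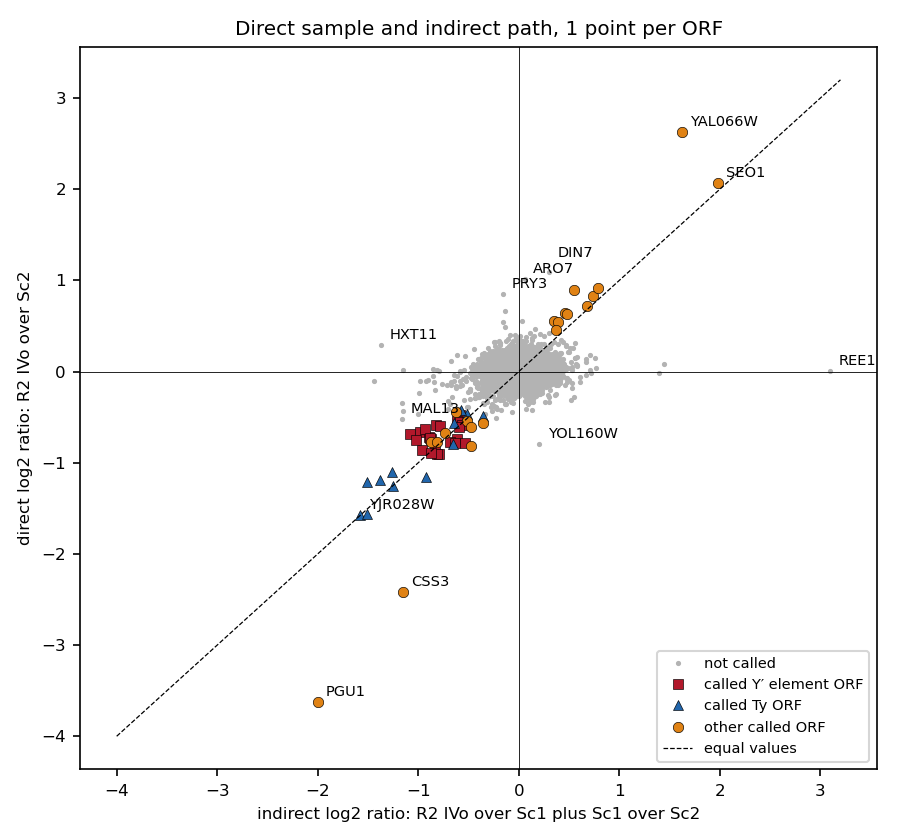
Direct against indirect log2 ratio of R2 IVo over Sc2 for 6123 ORFs, with a dashed line of equal values. Called ORFs lie near the line except PGU1, CSS3 and YAL066W, while DIN7, ARO7 and PRY3 are higher in the direct sample and REE1 is higher on the indirect path.

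Over all tested ORFs the median estimate was −0.0003 and 0.915% were called, so 0 calls in a list of 30 genes or fewer does not set that list apart. Of 22 gene lists with members on the array, 16 held no call by limma, with 383 tested ORFs among them and list medians of the estimate between −0.066 (23 seripauperin genes, 4 with p under 0.05 before adjustment) and 0.27 (3 ENA sodium pump genes, 2 with p under 0.05 before adjustment). The ENA genes are tandem copies. ENA5, ENA2 and ENA1 had direct values of 0.40, 0.40 and 0.34 and indirect values of 0.15, −0.092 and 0.13. The title of the series points to mannoprotein release. Of 30 cell wall mannoprotein genes 0 were called by limma (2 with p under 0.05 before adjustment), with estimates from −0.21 at CCW22 to 0.51 at PRY3 and a median of 0.034. The counts were also 0 by limma for 30 protein mannosylation genes (2 with p under 0.05 before adjustment, lowest PMT5 at −0.16, highest MNN10 at 0.39) and 29 genes of glucan and chitin synthesis (3 with p under 0.05 before adjustment, lowest GAS3 at −0.17, highest SPR1 at 0.35).

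In 4 lists of sugar, alcohol and metal genes 1 or 2 members were called. Of 20 hexose transporter and sensor genes HXT15 was the 1 called (5%, where 0.915% of all tested ORFs were called), and HXT11 had the lowest estimate, −0.26 ± 0.32. Of 9 genes of polyol and sugar phosphate use DOG2 was the 1 called (11.1%), and the list had a median estimate of 0.14. Of 6 aryl-alcohol dehydrogenase genes AAD15 was the 1 called (16.7%), and the median estimate was 0.21. The direct values of the 6 were all above 0, from 0.025 at AAD10 to 0.49 at AAD4, but AAD4 was at −0.14 and AAD14 at −0.20 indirectly. Among 11 genes for tolerance of copper, sulphite and arsenic, the CUP1 pair was called (18.2%), as near-identical copies, and the sulphite pump gene SSU1 was at 0.017 directly and −0.082 indirectly. No call was made by limma among 13 maltose and isomaltose genes (2 with p under 0.05 before adjustment), 25 glycolytic and fermentative genes (2, with HXK1 lowest at −0.31 and ADH4 highest at 0.13), 19 genes of thiamine, pyridoxine and biotin (2, with BIO3 at −0.16 and THI20 at 0.069), 29 nitrogen uptake genes (1, with DIP5 at −0.096 and LYP1 at 0.20) or 15 genes of siderophores and cell wall iron (2, with FIT1 at −0.26 and ENB1 at 0.27).

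Over all tested ORFs 0.915% were called. Among the 5 outermost ORFs of each arm the share was 20%, and at places 6 to 10 it was 4.38%, both with the Y′ ORFs included. The COS genes and most seripauperin genes lie at these places. The lists are short, and no test between families or against other ORFs of the ends was made. Of 11 COS genes, which encode membrane proteins of the chromosome ends, 0 were called by limma and 0 had p under 0.05 before adjustment (COS2 lowest at −0.11, COS1 highest at 0.16). Of 10 DUP240 membrane protein genes and 6 flocculin genes, 0 were called by limma and 0 had p under 0.05 before adjustment, with MST27 at −0.057 and PRM9 at 0.11 as the extremes of the first and FLO5 at −0.12 and FLO11 at 0.053 as those of the second. Among the seripauperin genes PAU14 was lowest at −0.21 and PAU15 highest at 0.17. The 6 mating-type ORFs lay between −0.18 (HMRA1) and 0.054 (HMLALPHA1), and 0 were called by limma (1 with p under 0.05 before adjustment). The 130 ribosomal protein genes, which lie mostly inside the chromosomes, had a median estimate of 0.0023 and extremes of −0.18 at RPS24B and 0.22 at RPL11A, with 0 called by limma and 4 with p under 0.05 before adjustment.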

How the data were processed

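The deposited table gives 1 log ratio per ORF and sample, which the authors had already combined over duplicate dye-swapped arrays, per the labels. Its unit and the scanner, background correction, normalisation and averaging were not stated in the labels, so signal over background is unknown and the number of arrays limits the precision. Whole-number cells of at least 1000 in size (76 in 57 ORFs, 11 of them in the R2 IVo against Sc2 sample) were divided by 1000. Sample medians over the 6123 ORFs with 3 values were then subtracted.

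The model in limma 3.58.1 (R 4.3.3, lmFit and eBayes) treats the 3 samples as sides of a triangle of strains, with 1 residual degree of freedom per ORF and estimated prior degrees of freedom of 5.30. An estimate weighs the direct value and the indirect path. Its p-values measure the spread among the deposited samples, not between cultures. By locus tag, 5674 of the 6178 ORFs were found in RefSeq assembly R64, which gave a symbol where it holds one. Systematic names gave chromosome, arm and order for 6145 ORFs. Coordinates and sequences are left out, because no label states the build behind the array.

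Named genes are the 15 highest and 15 lowest called ORFs, called members of gene lists, members of runs, list extremes and the 5 largest closures among direct values of at least 1 in size. Genes named besides these, such as flanking genes and partners of called ORFs, were chosen after their values were seen. Members, lists and rules were chosen with earlier results of these data known. The lists for the mitochondrial genome and the 2-micron plasmid had no ORF on the array. Alternatives changed centring, moderation, restored cells, families and thresholds.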

Additional observations from a re-analysis of the deposited data

How the results depend on the processing

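The 56 called ORFs had the same direction in the direct sample and on the indirect path. A call rests on both values and on the gap between them, so this sameness is largely built into the calls. It is no separate check of them. Robust moderation and prior degrees of freedom of 4 change only the spread, not the estimates. The count of 56 calls was 45 without centring, 58 with centring on the mode, 52 with robust moderation, and 58 when samples were centred over all ORFs with a value, an alternative added after seeing the data. It fell further in 3 settings. With prior degrees of freedom of 4 it was 34 (5 higher, 29 lower and 26 of 40 list members called). Without restored decimals it was 15 (4 higher, 11 lower). That takes many of the largest ratios out of the test. FMP27, AAD15, DOG2 and YMR045C stayed in and lost their calls (limma adjusted p = 0.0955 for each). Without the multi-copy families it was 9 (5 higher, 4 lower). That takes out the Y′ and Ty ORFs, CUP1-1 and CUP1-2. CSS3, YFL067W, YEL074W, YEL073C, YLR162W, MCH2, FMP27, AAD15, DOG2 and HXT15 stayed in and lost their calls (limma adjusted p between 0.057 and 0.139). Without ORFs of closure over 0.5, also added after seeing the data, it was 88 (20 higher, 68 lower). That setting removes ORFs by the residual the test uses, and so lowers the estimated spread. The 44 ORFs past 0.5 by both paths became 20 at 0.75, 56 at 0.4 and 11 without restored decimals. The chromosome medians spanned 0.054 directly and 0.156 by the indirect path, and the cause was not tested. The share of calls among outermost ORFs and the number of runs (12 at 0.2 and 7 at 0.35, against 9) stayed within 1.5 times. No paired analysis was possible because each pair of strains has 1 sample. Signal over background, which would show where a low ratio is only a bound, was not analysed here.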

Other observations

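The 29 ORFs with a direct value but no complete indirect path included 14 on chromosome II, 6 of them between MMS4 and VID24 and 8 between MRPS9 and RIB7 on the right arm. These 14 ORFs lay between −0.18 and 0.12 in the direct sample. Over all 29 ORFs the direct values ran from −0.20 at ERD1 to 1.04 at YPS7, the protease gene described above, and PAL1 and HRQ1, both on chromosome IV, were at 0.41 and 0.37.

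The control spot named Arabidopsis had a deposited value of 0.414 in the R2 IVo against Sc2 sample, 0.173 in R2 IVo against Sc1 and −0.008 in Sc1 against Sc2. The control spot named 3XSSC was at 0.041, 0.002 and −0.010 in the same order. These spots entered no comparison.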
